A study of Homo sapiens with 6 samples.

Results

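The genes described here encode the kinetochore, the centromere and the spindle checkpoint. They are 34 named genes, found by symbol among the 58735 rows of the count table. All 34 matched a single row, and all 34 passed the low-count filter that left 13772 genes to test. Cells of Ovcar8, a long-established ovarian cancer line of human origin, spent 48 h either without serum or with 5% fetal bovine serum (FBS), the supplement of their usual RPMI-1640 medium. Each group had 3 RNA-seq libraries. The series is on quiescence after serum withdrawal, and the comparison asks which transcripts differ between serum-starved and serum-fed cells. All libraries come from this single line, and nothing in the labels says that the 3 libraries of a group were separate cultures, so the p-values cover the spread among these libraries, which may be technical.

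The kinetochore is the protein assembly that ties a chromosome to spindle microtubules. It is built on the centromere, whose nucleosomes carry the histone variant CENP-A. The constitutive centromere network binds that chromatin, the KNL1, Mis12 and Ndc80 complexes reach from it to the microtubule, and the Ska complex stabilizes the attachment. Unattached kinetochores recruit the checkpoint proteins, which hold back anaphase. In dividing human cells many of these genes are transcribed mainly in G2 and mitosis, and their promoters are known targets of the DREAM and MuvB complexes. Those complexes bind a short element named CHR, the cell cycle genes homology region.

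Promoter sequence is shown first, because the shared element lies there and was not used to choose the genes. RefSeq windows (GRCh38.p14) from 250 bases before to 50 after the annotated start were found for 28 of the 34 genes, the first listed window being used for SGO2, ZWINT and MIS12. The genes without an entry were BUB3, TTK, KNL1, CENPH, CENPM and MIS18A. Each window was searched on both strands for the CHR forms TTTGAA and TTCGAA, the variant TTTAAA, the NF-Y box CCAAT, and the E2F forms TTTGGCGC, TTTCGCGC, TTCGCGCC and TTGGCGCC. The last 170 bases of 8 windows follow, 5′ to 3′ on the gene's strand, with matches in capitals; a match on the other strand reads TTCAAA (for TTTGAA) or ATTGG (for CCAAT). They were picked to show a CHR close to the start with and without CCAAT boxes in these 170 bases, and SKA2 to show CCAAT boxes alone. MAD2L1 and CENPA do have CCAAT boxes further upstream in their windows, starting at position -229 in MAD2L1 and at -205 and -130 in CENPA.
MAD2L1 (chr4:120066799-120066968, minus strand): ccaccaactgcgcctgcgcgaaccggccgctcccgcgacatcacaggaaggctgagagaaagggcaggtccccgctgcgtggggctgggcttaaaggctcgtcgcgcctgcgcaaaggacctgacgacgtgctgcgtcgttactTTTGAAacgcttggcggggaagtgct
NDC80 (chr18:2571437-2571606, plus strand): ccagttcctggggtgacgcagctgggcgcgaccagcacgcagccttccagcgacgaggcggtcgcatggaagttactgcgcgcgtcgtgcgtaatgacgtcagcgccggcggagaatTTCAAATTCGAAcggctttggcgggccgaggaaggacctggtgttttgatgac
SPC25 (chr2:168890381-168890550, minus strand): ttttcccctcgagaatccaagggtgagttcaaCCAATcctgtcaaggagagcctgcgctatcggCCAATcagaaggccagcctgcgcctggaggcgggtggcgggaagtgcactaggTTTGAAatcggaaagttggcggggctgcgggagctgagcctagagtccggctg
CENPA (chr2:26785936-26786105, plus strand): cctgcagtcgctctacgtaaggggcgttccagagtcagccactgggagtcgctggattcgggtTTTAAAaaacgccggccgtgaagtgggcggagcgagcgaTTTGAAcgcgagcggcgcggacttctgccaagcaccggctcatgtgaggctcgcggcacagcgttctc
CENPN (chr16:81007094-81007263, plus strand): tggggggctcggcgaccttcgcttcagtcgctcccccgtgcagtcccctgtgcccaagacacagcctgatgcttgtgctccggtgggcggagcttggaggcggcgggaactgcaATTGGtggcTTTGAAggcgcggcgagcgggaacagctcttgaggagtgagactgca
INCENP (chr11:62123891-62124060, plus strand): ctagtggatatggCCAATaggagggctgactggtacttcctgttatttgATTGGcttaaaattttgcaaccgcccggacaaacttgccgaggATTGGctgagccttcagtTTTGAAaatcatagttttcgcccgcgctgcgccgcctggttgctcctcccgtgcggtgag
CDCA8 (chr1:37692396-37692565, plus strand): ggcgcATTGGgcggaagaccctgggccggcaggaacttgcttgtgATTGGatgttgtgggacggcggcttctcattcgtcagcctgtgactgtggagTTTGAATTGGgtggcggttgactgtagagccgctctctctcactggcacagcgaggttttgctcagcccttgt
SKA2 (chr17:59155137-59155306, minus strand): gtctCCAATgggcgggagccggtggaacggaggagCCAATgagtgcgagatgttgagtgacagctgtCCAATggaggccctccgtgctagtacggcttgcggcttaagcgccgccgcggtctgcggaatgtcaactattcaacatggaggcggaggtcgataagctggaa

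TTTGAA or TTCGAA was in 18 of the 28 windows (64.3%), against 16.6% of 27305 RefSeq windows of the same length. Of the 20 matches to these forms, 18 lay between 40 bases before and 49 bases after the first transcribed base. TTCGAA reads the same on both strands, so only TTTGAA has a direction, and 3 of its matches lay on the other strand. NDC80 carries both forms side by side at its start. A CCAAT box was in 18 windows (64.3%, against 35.7% of all windows), and at least 2 were in 13 (46.4%, against 11.3%). TTTAAA was in 4 windows (14.3%, against 12.3%). The E2F forms were found in CENPU and ZWINT, 2 windows of 28 (7.14%, against 2.67%). The pair in CENPU overlap each other, and in CDCA8 the CHR and a CCAAT box share a base. DSN1, NSL1 and CENPI held none of these motifs. The CENPI window (chromosome X, 101100808 to 101101107) lies inside the gene as counted, which starts at 101098218. At 37.7% its GC content was the lowest of the 28 windows, so it may not hold the CENPI promoter. The windows of NUF2, SPC25, CENPA, SGO2, CENPN and CENPO also lie inside the genes as counted. For NUF2 the gene starts at 163266576 and the window at 163321704. Which start these cells use was not tested. A match is a stretch of letters, not a measured binding site. The 18 genes with TTTGAA or TTCGAA had a median log2 fold change without serum of -0.33, and the 10 without them -0.31. The 10 include CENPI, and also CENPE and SGO2, whose windows hold the variant TTTAAA. Whether fold change goes with the element was not tested.

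**Figure D1:**
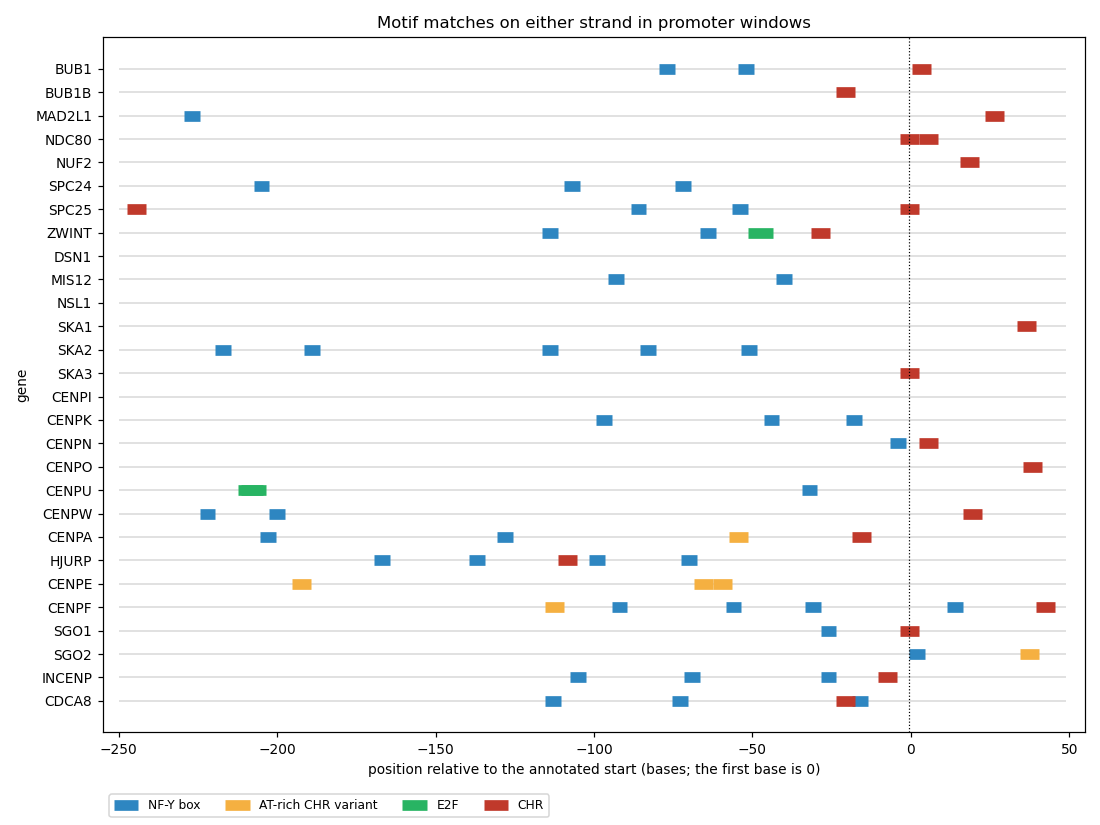
Motif matches in the promoter windows of 28 genes, with the distance from the annotated start in bases on the horizontal axis (the first transcribed base is 0, dotted) and one gene per row. Red marks TTTGAA or TTCGAA, which gather near the start; blue marks CCAAT, orange TTTAAA and green the E2F forms.

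The libraries held 16379416 to 19558484 counts assigned to genes. Counts of the 34 genes ran from 11 to 3312 per library. The epithelial keratin KRT8 was abundant, averaging 6090 TMM-normalized CPM without serum and 6130 CPM with FBS, and PAX8, a transcription factor of ovarian and tubal carcinoma, averaged 78.7 CPM without serum and 64.3 CPM with FBS. The whole list of 10 carcinoma markers summed to 8520 to 12100 CPM without serum and 7150 to 12100 CPM with FBS. EPCAM (2.5 CPM without serum, 2.7 with FBS) and CDH1 (0.473 CPM without serum, 0.621 with FBS) were low, KRT19 was near 0, and MUC16 was at 0 in every library. Of 6 fibroblast markers COL1A1 alone was above the filter, and the list summed to 762 to 831 CPM in serum-starved libraries and 318 to 577 CPM with FBS; DCN and COL1A2 were at 0 throughout, and the part of this list in the results below was not tested. The 3 endothelial markers summed to 1.54 to 4.55 CPM without serum and 0.26 to 0.775 CPM with FBS. VWF averaged 2.72 CPM without serum and 0.347 CPM with FBS, and CDH5 was at 0 in 5 libraries. The 5 leukocyte markers summed to 1.76 to 1.84 CPM without serum and 1.22 to 2.53 CPM with FBS, with PTPRC, CD3E and CD68 at or near 0. The part of the endothelial list was likewise not tested.

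Without serum most of these genes lay below their level in FBS, by amounts that did not pass the test. The log2 fold change (serum-starved over FBS) was below 0 for 30 of 34 (88.2%, against 51.5% of all genes tested), with a median of -0.35 against -0.02 over all genes. None passed edgeR's quasi-likelihood test at an adjusted p under 0.05 (Benjamini-Hochberg over all genes), where 0.0436% of all genes were called lower and 0.24% higher. At an unadjusted p under 0.05, 6 of 34 were lower (17.6%, against 4.37% of all genes) and none higher (against 6.01%). DESeq2 and limma-voom also called none. At an unadjusted p under 0.05, 7 were lower in DESeq2 and 5 in limma-voom. The shares of all genes were 3.3% in DESeq2 and 5.71% in limma-voom. DESeq2 ran without the low-count filter on 23463 genes, so its share is not on the same set as the others. The 3 serum-starved libraries all lay below the 3 FBS libraries for 7 of 34 (20.6%, against 7.65%), and all above for none (against 10%). The 6 with the smallest p were SGO2, MAD2L1, TTK, CENPE, NUF2 and NDC80. In such bulk RNA, fewer cells in mitosis and less RNA per cell cannot be told apart.

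**Figure D2:**
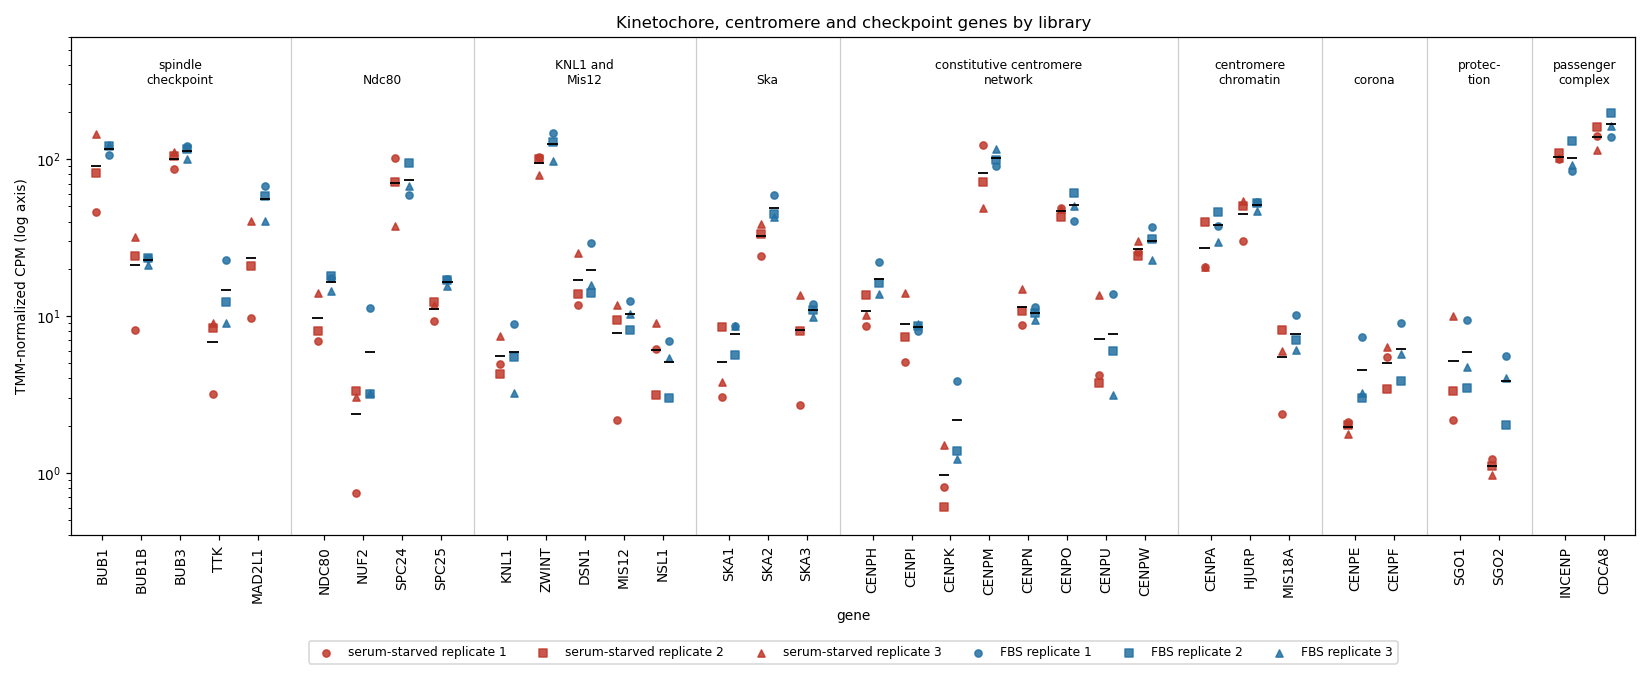
TMM-normalized CPM (log axis) of the 34 genes in each library, in the order of their roles, with serum-starved libraries in red left of FBS libraries in blue; symbols are replicates and black bars are group means. Serum-starved replicate 1 (red circle) is the lowest of all 6 libraries in 19 genes, and FBS replicate 1 (blue circle) is the highest in 18.

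The pattern was uneven between libraries. Of the 34 genes, 19 were lowest in serum-starved replicate 1, 2 in replicate 2 and 7 in replicate 3, against 2, 1 and 3 in FBS replicates 1, 2 and 3. FBS replicate 1 was the highest in 18. The median log2 deviation from each gene's mean over the 6 libraries was -0.56, -0.15 and 0.08 in serum-starved replicates 1, 2 and 3, and 0.47, 0.17 and 0.04 in the FBS replicates. Serum-starved replicate 3 was at the level of FBS replicate 3. Without serum-starved replicate 3 the median log2 fold change was -0.52, and 32 of 34 were below 0 (against 50.6% of all genes). In that fit 11 of 34 were lower at an unadjusted p under 0.05 (32.4%, against 9.26%), and MAD2L1 passed edgeR at an adjusted p of 0.00285, where 0.938% of all genes were called lower. Without serum-starved replicate 1 the median was -0.20, 22 of 34 were below 0 (against 50.7%) and 4 were lower at an unadjusted p under 0.05 (11.8%, against 5.41%). Without FBS replicate 1 the number lower at that threshold was 2 (5.88%, against 1.35% of all genes). It was 6 without serum-starved replicate 2 (17.6%, against 4.28%), 5 without FBS replicate 2 (14.7%, against 3.1%) and 5 without FBS replicate 3 (14.7%, against 3.84%).

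These genes have transcripts of low GC content, and the libraries differed with GC content. The median transcript GC content was 42.2% (34.5% to 60.1%), against 50.7% over all genes tested, and the median gene length 3580 bases against 4800. Across the 34 genes the log2 fold change had a Spearman rho of 0.56 with GC content (0.29 across all genes tested); the genes share the same 6 libraries and are not independent. The 17 genes with the lower GC content had a median of -0.60 with 17 of 17 below 0. The 17 with the higher GC content had a median of -0.18 with 13 below 0. Among all 1903 tested genes with a GC content of at most 42.1%, the median was -0.42; among the 11865 above it, 0.03. In serum-starved replicate 1 the 17 low-GC genes deviated by a median of -0.67 and the 1903 low-GC genes by -0.62, and in FBS replicate 1 by 0.69 and 0.65. In serum-starved replicate 3 the low-GC medians were apart, at -0.01 for the 17 genes and 0.27 for the 1903. The 17 higher-GC genes deviated by a median of -0.28 in serum-starved replicate 1, where the 11865 genes above the limit deviated by 0.10.

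When GC content and gene length were corrected for within each library, a smaller shift was left. The median log2 fold change of the 34 genes was then -0.10 against 0.02 over all genes, and 22 of 34 were below 0 (against 48.2%). The rho with GC content was 0.04. None of the 34 passed edgeR in this fit either, where 0.182% of all genes were called lower. At an unadjusted p under 0.05, SGO2 and MAD2L1 were lower (2 of 34, against 7.24% of all genes) and CENPW was higher (1 of 34, against 8.74%). The median deviation of serum-starved replicate 1 was 0.00 and that of FBS replicate 1 was -0.03. With 3 libraries a group, an effect of serum on low-GC genes and a difference between libraries that follows GC content cannot be told apart.

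**Figure D3:**
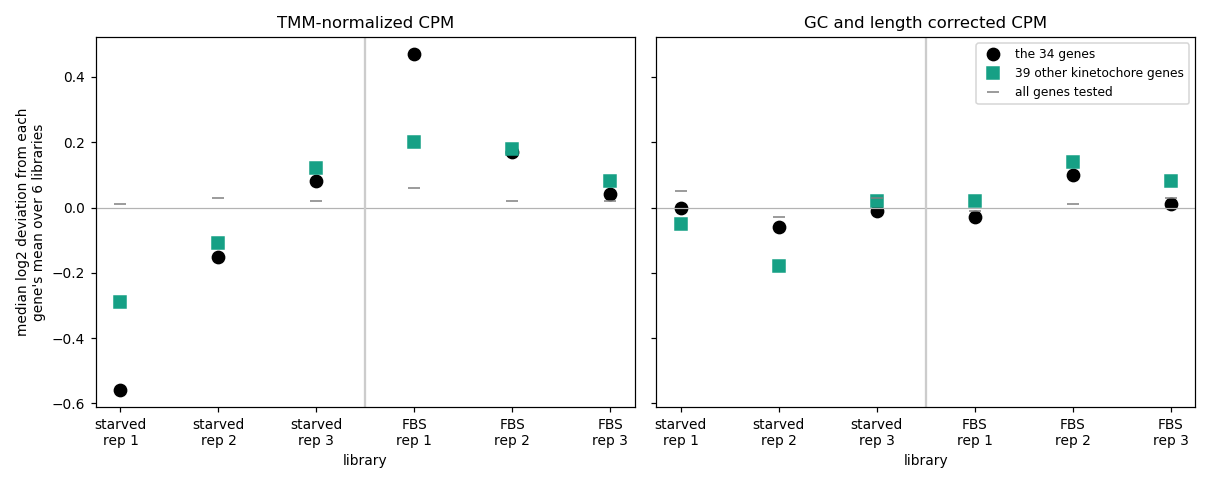
Median log2 deviation of the 34 genes (black), of 39 other kinetochore genes (green) and of all genes tested (grey bars) in each library, serum-starved libraries on the left of each panel, before (left panel) and after (right panel) the GC and length correction. The 34 genes run from -0.56 to 0.47 before it and from -0.06 to 0.10 after it.

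**Figure D4:**
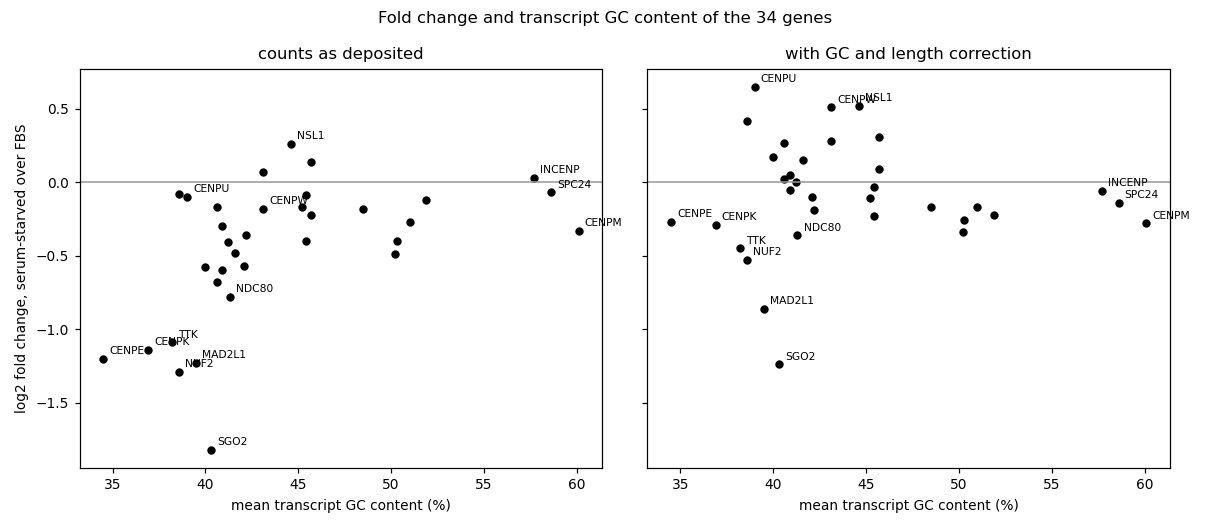
Log2 fold change (serum-starved over FBS) of each of the 34 genes against its mean transcript GC content in percent, without correction (left) and with the GC and length correction (right). Genes below about 42% GC lie lowest on the left (rho 0.56) and spread around 0 on the right (rho 0.04), where SGO2 and MAD2L1 are the lowest.

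All 5 checkpoint genes had log2 fold changes below 0, with a median of -0.36 (-0.19 corrected for GC content and length), and none passed. MAD2L1 encodes MAD2, the protein that locks onto CDC20 to hold back the anaphase-promoting complex. MAD2L1 (chromosome 4, 120055608 to 120067074, GRCh38) stood at 9.72, 20.8 and 40.2 CPM in serum-starved replicates 1 to 3 and at 67.5, 58.7 and 40.6 CPM in the FBS replicates. The groups did not overlap, but their nearest libraries, both replicate 3, were 40.2 and 40.6 CPM. The log2 fold change was -1.23 (SE 0.40, edgeR adjusted p = 0.292). It was -0.86 with the GC and length correction (edgeR adjusted p = 0.118), and ran from -1.86 to -0.84 when single libraries were left out. With the correction and without serum-starved replicate 3 it was -1.12 (edgeR adjusted p = 0.052). TTK, the MPS1 kinase that starts checkpoint signalling, had 3.19, 8.4 and 8.98 CPM without serum and 22.8, 12.3 and 8.97 CPM with FBS. Serum-starved replicate 3 and FBS replicate 3 were level, so the groups overlapped (log2 fold change -1.09, SE 0.45, edgeR adjusted p = 0.403; -0.45 corrected).

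BUB1, the kinase that marks centromeric chromatin for shugoshin, had 46.3, 81.8 and 145 CPM without serum and 107, 121 and 123 CPM with FBS. The starved libraries lay on both sides of all FBS libraries, with an SD of 49.9 CPM without serum and 8.53 CPM with FBS. Its log2 fold change was -0.36, and -0.87 without serum-starved replicate 3 (edgeR adjusted p = 0.103). BUB1B, which encodes the checkpoint protein BUBR1, and BUB3, the WD-repeat partner of both, had log2 fold changes of -0.09 and -0.17. Both overlapped between groups.

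In the Ndc80 complex, whose 4 subunits form a rod that grips the microtubule, all 4 lay below 0, with a median of -0.68 (-0.25 corrected), and none passed. NDC80 (chromosome 18, 2571511 to 2616635) had 6.93, 8.07 and 14 CPM without serum and 17.5, 17.9 and 14.5 CPM with FBS. The groups did not overlap, with both replicates 3 again adjacent (a log2 fold change of -0.78, SE 0.36, with an edgeR adjusted p of 0.47). NUF2, its coiled-coil partner, had 0.748, 3.35 and 3.04 CPM without serum and 11.2, 3.16 and 3.25 CPM with FBS. Serum-starved replicate 1, with 11 counts, and FBS replicate 1, with 220, stood apart from the other 4 libraries. Its log2 fold change was -1.29 (SE 0.60, edgeR adjusted p = 0.464), and ran from -1.61 to -0.42 when single libraries were left out. SPC25 and SPC24 are the pair that anchors the rod at the inner kinetochore. SPC25 had 9.31, 12.3 and 11.7 CPM without serum and 17.2, 16.9 and 15.5 CPM with FBS, without overlap and with a log2 fold change of -0.58, but of 0.17 with the GC and length correction. SPC24 had 102, 71.1 and 37.5 CPM without serum and 59.2, 94.1 and 67.7 CPM with FBS, and its order of the starved libraries ran opposite to that of NDC80. GC content was 58.6% for SPC24 and 41.3% for NDC80. The log2 fold change of SPC24 was -0.07 (-0.14 corrected).

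The KNL1 and Mis12 complexes join the centromere to Ndc80 and carry the docking sites of the checkpoint. Of these 5 genes 4 lay below 0, with a median of -0.22 (0.09 corrected). ZWINT, the KNL1 partner, had 104, 101 and 78.8 CPM without serum and 148, 128 and 98.1 CPM with FBS, the lowest FBS library falling within the starved range (a log2 fold change of -0.40, SE 0.29, with an edgeR adjusted p of 0.682). MIS12 had 2.17, 9.39 and 11.8 CPM without serum and 12.4, 8.1 and 10.3 CPM with FBS. Apart from serum-starved replicate 1 its libraries lay together. DSN1, another Mis12 subunit, had 11.7, 13.9 and 25.1 CPM without serum and 29.3, 14.1 and 15.7 CPM with FBS. NSL1, also of the Mis12 complex, had 6.12, 3.13 and 9.07 CPM without serum and 6.96, 2.98 and 5.39 CPM with FBS. Its log2 fold change of 0.26 (SE 0.48) was the highest of the 34, although it was -0.15 without serum-starved replicate 3. KNL1 itself, the scaffold that binds the BUB proteins, had a log2 fold change of -0.08.

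All 3 Ska genes had fold changes below 0, from -0.60 to -0.41 on the log2 scale, and none passed. SKA2 had 24.3, 33.4 and 38.7 CPM without serum and 58.9, 44.9 and 42.9 CPM with FBS. Its groups did not overlap (a log2 fold change of -0.60, SE 0.30, with an edgeR adjusted p of 0.499), and the corrected value was -0.05. SKA1 had 3.06, 8.51 and 3.79 CPM without serum and 8.59, 5.66 and 8.64 CPM with FBS, so serum-starved replicate 2 lay among the FBS libraries. SKA3 averaged 8.16 ± 5.49 CPM without serum and 10.9 ± 1.04 CPM with FBS (SD, n = 3 each).

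The 8 genes of the constitutive centromere network were mixed: 6 lay below 0, 2 above, and the median was -0.15. With the GC and length correction 3 lay below 0 and 5 above, with a median of 0.15. CENPH had 8.63, 13.7 and 10.1 CPM without serum and 22, 16.3 and 13.8 CPM with FBS. The nearest libraries were 13.7 and 13.8 CPM (a log2 fold change of -0.68, SE 0.35, with an edgeR adjusted p of 0.52), and the corrected value was 0.02. CENPK, which sits with CENPH and CENPI in one subcomplex, was low at 0.816, 0.604 and 1.5 CPM without serum and 3.86, 1.37 and 1.23 CPM with FBS. Only FBS replicate 1 stood apart. CENPM, a small GTPase-like subunit, had 123, 71.7 and 48.9 CPM without serum and 90.4, 99.6 and 117 CPM with FBS. Here serum-starved replicate 1 was the highest library, the reverse of its place in MAD2L1 and NDC80. CENPN, which reads the CENP-A nucleosome, had 8.77, 10.8 and 14.8 CPM without serum and 11.4, 10.4 and 9.49 CPM with FBS (log2 fold change 0.14). CENPI had 5.1, 7.35 and 14.1 CPM without serum and 7.98, 8.58 and 8.84 CPM with FBS (log2 fold change 0.07). Both turned below 0 without serum-starved replicate 3, at -0.10 and -0.44. CENPO, CENPU and CENPW had log2 fold changes of -0.12, -0.10 and -0.18, and overlapped. CENPO shares 27.0% of its exonic bases with ADCY3 on the other strand, which had a log2 fold change of 0.88 that did not pass (edgeR adjusted p = 0.288). The strand setting of the counting is unknown, so reads of the shared bases cannot be assigned to either gene.

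For centromere chromatin, CENPA had 20.6, 40 and 20.4 CPM without serum and 37.5, 46.1 and 29.8 CPM with FBS. Serum-starved replicate 2 lay within the FBS range (a log2 fold change of -0.49, SE 0.33, with an edgeR adjusted p of 0.651). CENPA shares 7.0% of its exonic bases with SLC35F6 on the same strand, a gene with a log2 fold change of 0.76 that did not pass (edgeR adjusted p = 0.346). MIS18A, part of the complex that licenses new CENP-A loading, had 2.38, 8.12 and 5.99 CPM without serum and 10.1, 7.03 and 6.04 CPM with FBS. HJURP, the CENP-A chaperone, averaged 44.7 ± 12.9 CPM without serum and 50.9 ± 3.42 CPM with FBS (SD, n = 3 each; log2 fold change -0.18).

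The corona genes encode large coiled-coil proteins of the outer kinetochore. CENPE, a kinesin motor that brings chromosomes to the metaphase plate, had 2.11, 2.03 and 1.76 CPM without serum and 7.32, 2.98 and 3.25 CPM with FBS. The starved libraries lay close together and below all FBS libraries, of which replicate 1 stood far above the others (a log2 fold change of -1.20, SE 0.50, with an edgeR adjusted p of 0.41). Its transcripts had the lowest GC content of the 34 at 34.5%, and its corrected log2 fold change was -0.27. CENPF had 5.44, 3.4 and 6.3 CPM without serum and 8.99, 3.87 and 5.72 CPM with FBS, with overlap and a log2 fold change of -0.30.

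SGO2 showed the largest fold change of the 34. It encodes a shugoshin, a protector of centromeric cohesin. SGO2 (chromosome 2, 200510008 to 200583782) had 1.22, 1.1 and 0.969 CPM in serum-starved libraries and 5.59, 2.03 and 4.03 CPM with FBS. The starved libraries agreed within 0.127 CPM (SD) and lay below all 3 FBS libraries, on 18 to 22 counts each against 34 to 110. The log2 fold change was -1.82 (SE 0.55, edgeR adjusted p = 0.256), a fold of 0.283. It stayed between -2.12 and -1.47 when single libraries were left out, and was -1.24 with the GC and length correction (edgeR adjusted p = 0.249). With the correction and without serum-starved replicate 3 it was -0.91 (edgeR adjusted p = 0.441). SGO1, its paralog and the main shugoshin of mitosis, had 2.17, 3.35 and 10 CPM without serum and 9.4, 3.46 and 4.74 CPM with FBS. Serum-starved replicate 3 was its highest library (log2 fold change -0.17, SE 0.55).

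INCENP and CDCA8 (borealin) belong to the chromosomal passenger complex, which corrects faulty attachments through the kinase Aurora B. INCENP had 101, 110 and 102 CPM without serum and 84.3, 131 and 92.2 CPM with FBS, a log2 fold change of 0.03 (SE 0.28). CDCA8 had 140, 160 and 115 CPM without serum and 139, 197 and 164 CPM with FBS, a log2 fold change of -0.27 (SE 0.29). Both overlapped between groups, and for INCENP the means differed by less than the spread between replicates.

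**Figure D5:**
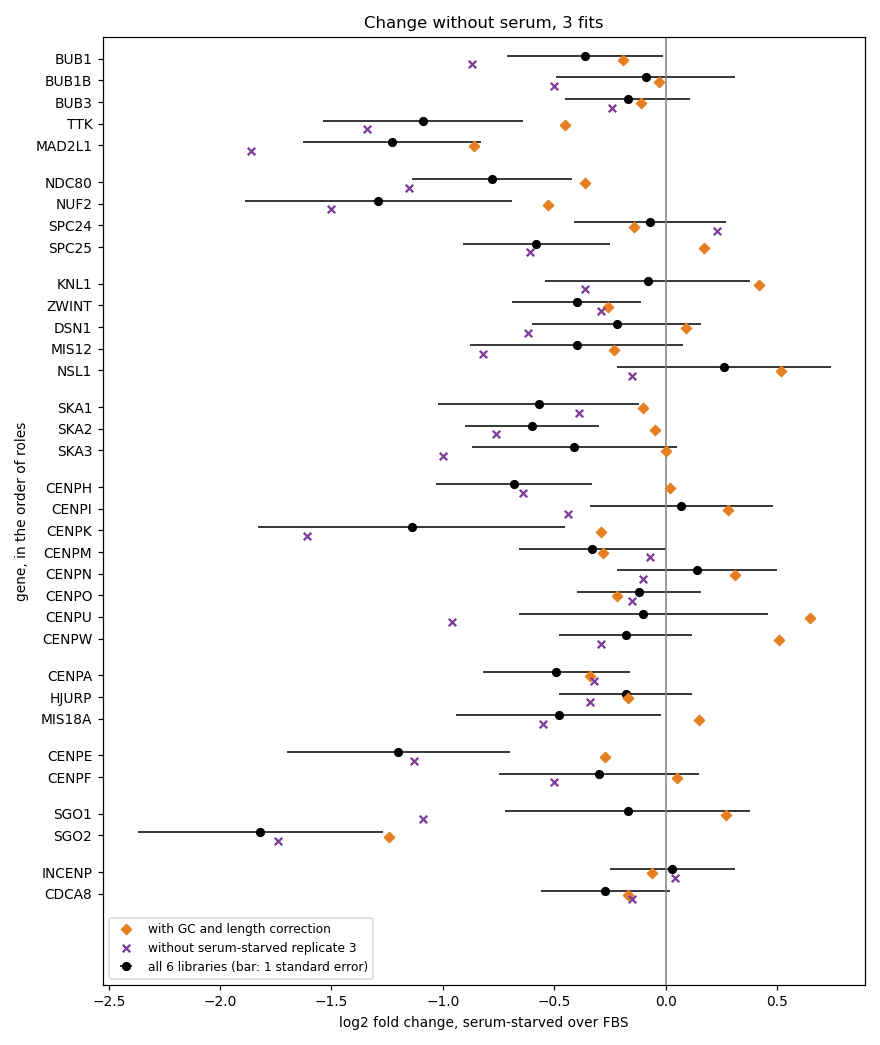
Log2 fold change (serum-starved over FBS) of the 34 genes in the order of their roles: black points with bars of 1 standard error for all 6 libraries, orange diamonds with the GC and length correction, purple crosses without serum-starved replicate 3. SGO2, NUF2, MAD2L1, CENPE, CENPK and TTK lie below -1 in the first fit, and of these SGO2 alone lies below -1 in the corrected one.

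Per gene length, the levels spanned a wide range even within one complex. On the deposited FPKM scale (fragments scaled by gene length and library size), the highest 8 genes in both groups were CDCA8, CENPM, ZWINT, CENPW, SPC24, INCENP, BUB1 and CENPA, in that order. CDCA8 was at 54.6 ± 8.95 FPKM without serum and 65.9 ± 12.4 FPKM with FBS, and CENPA at 13.3 ± 5.49 FPKM without serum and 18.6 ± 4.11 FPKM with FBS (SD, n = 3 each). CENPM (44.6 ± 21 FPKM without serum, 56.2 ± 7.85 with FBS) and ZWINT (38.9 ± 5.78 FPKM without serum, 51.2 ± 9.97 with FBS), next in the order, did not differ from each other beyond their spread. The 4 Ndc80 subunits, which assemble in equal numbers, were unequal on this scale. SPC24 was at 24.1 ± 11.1 FPKM without serum and 25.4 ± 6.5 FPKM with FBS. SPC25 was at 5.87 ± 0.814 FPKM without serum and 8.76 ± 0.43 FPKM with FBS. NDC80 was at 2.61 ± 1.02 FPKM without serum and 4.51 ± 0.501 FPKM with FBS, and NUF2 at 0.689 ± 0.41 FPKM without serum and 1.69 ± 1.31 FPKM with FBS. The lowest with FBS were CENPE (0.203 ± 0.0192 FPKM without serum, 0.464 ± 0.244 with FBS), CENPK, CENPF and KNL1, and the lowest without serum was SGO2 (0.178 ± 0.0212 FPKM, against 0.627 ± 0.282 with FBS). CENPF, KNL1 and CENPE are also the longest of the 34 genes (11690, 10250 and 9444 bases). FPKM is not scaled for GC content, which was 58.6% for SPC24 and 38.6% to 41.3% for NUF2, SPC25 and NDC80. It ran from 42.2% (BUB1) to 60.1% (CENPM) in the highest 8 genes. In CENPE, CENPK, CENPF and KNL1 it ran from 34.5% to 40.9%. The part of GC content in these levels was not tested. MAD2L1 ranked 17 of 34 without serum, against 12 with FBS, and CENPN 18 without serum, against 23 with FBS, the widest differences in rank among the 34.

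Of 39 other kinetochore and checkpoint genes, all 39 were tested and none passed edgeR over all genes. At an unadjusted p under 0.05, 4 were lower (10.3%, against 4.37% of all genes) and 1 higher (against 6.01%). Their median log2 fold change was -0.25, with 29 below 0 (74.4%, against 51.5%). This median hardly moved in the corrected fit (-0.26), where 26 lay below 0 (66.7%, against 48.2%). There edgeR put 7 lower (17.9%, against 7.24%) and 2 higher (against 8.74%) at that unadjusted threshold. CENPX, a histone-fold subunit of the centromere network, had 74.9, 53.7 and 23.2 CPM without serum and 101, 111 and 92.6 CPM with FBS. The groups did not overlap, the log2 fold change was -1.01 (edgeR adjusted p = 0.331), and it passed with the GC and length correction (-0.99, edgeR adjusted p = 0.031). SPDL1, which recruits dynein to kinetochores, and ITGB3BP and CENPQ, of the centromere network, passed without serum-starved replicate 3 (edgeR adjusted p = 0.0183, 0.0406 and 0.00614); CENPQ then had 0 counts in both remaining starved libraries. CENPX, SPDL1, ITGB3BP and CENPQ were named after their values were seen.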

How the data were processed

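RNA from 6 libraries of Ovcar8 cells (3 serum-starved, 3 with FBS, grouped by the titles) was sequenced on an Illumina NovaSeq from libraries made with a NEBNext Ultra 2 kit, per the labels' protocols. The submitters' processing notes name STAR 2.6.1, DESeq2 and GRCh38, without roles; for the counting tool and its strand setting, nothing is given in the sources used here. One deposited table holds raw counts per gene, per the file headers, and a second one the authors' FPKM values, which equalled counts per length scaled by size factors. All 58735 IDs and positions matched GENCODE 29.

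Genes were kept by filterByExpr (minimum count 10, minimum total 15), scaled with TMM and tested two-sided with edgeR 4.0.16 (robust glmQLFit, glmQLFTest; R 4.3.3) at an adjusted p of 0.05. The SE is the log2 fold change over the square root of F. Levels are CPM computed from the deposited counts and TMM-scaled library sizes. The GC and length correction fitted natural splines (5 degrees of freedom) of mean GENCODE transcript GC content and of log2 gene length to each library's log2 deviations and entered them as offsets (13768 genes). Alternatives were other scalings, filters, DESeq2 1.42.0, limma 3.58.1 (voom, and log2 FPKM with pseudocounts of 1 and 0.1), a replicate block and each library left out. The tests were checked on simulated counts. In the main fit a simulated 2-fold difference was detected for 9 of 85 genes, and a 4-fold difference for 75 of 106. Of its 85 calls 1 was false. Most 2-fold differences were thus missed, so a gene that did not pass is not shown to be unchanged. The simulated libraries held no trend with GC content, unlike the real ones, so the rates of detection and of false calls may not carry over. The members, lists and tests were chosen with earlier results of these data known. Values in every library are given, per role, for the 2 genes with the smallest p (3 in roles of 5 or more) and for the 3 genes with the highest fold change; SPC24 and SPC25 were added after their values were seen. A count of 3, the limit that a count of 0 allows, was 0.132 to 0.204 CPM, which covers counting error only. One overlap between genes is not reported here.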

Additional observations from a re-analysis of the deposited data

How the results depend on the processing

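Among the 34 genes the number passing was 0 in the main test and 1 (MAD2L1) without a low-count filter (edgeR adjusted p = 0.0431); it was 0 to 1 when single libraries were left out, and 0 in the other settings run. Their median log2 fold change stayed below 0 in all settings, at -0.52 to -0.20 when single libraries were left out and -0.10 with the GC and length correction. The number of other kinetochore genes that passed was 0, against 1 with the GC and length correction, 1 with that correction and the replicate block, 0 to 3 when single libraries were left out, and 1 with the correction and without serum-starved replicate 3, a setting chosen after seeing the data. Over all genes 39 passed, against 25 with library totals alone, 127 without a filter, 154 in DESeq2, 22 in limma on log2(FPKM + 1) and 19 with a pseudocount of 0.1 (both with a mean FPKM of at least 0.5, which left 30 of the 34), and 0 in limma on log2(FPKM + 1) without a filter (1534 at an unadjusted p under 0.05). It was 108 with the GC and length correction, 145 with that correction and the replicate block, 85 with the correction and without serum-starved replicate 3, and 4 to 257 when single libraries were left out. The cause of these differences was not tested. The labels do not say whether the replicate numbers pair the libraries. Deviations of same-numbered libraries correlated at -0.238, 0.087 and -0.07 across genes, and those of other pairs at -0.221 to 0.24. With 3 libraries a group these values cannot show whether the libraries were paired. With the replicate block none of the 34 genes passed, their median was -0.41, and 43 genes passed over all. In the window from 100 bases before to 50 after the start, the members with 2 or more CCAAT boxes numbered 8, those with any E2F form 1, with TTTCGCGC 0 and with TTCGCGCC 1. Depth limits SGO2, NUF2 and CENPK, each with fewer than 30 counts in some library.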
